A study of Rattus norvegicus with 5 samples.

Results

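The AP-1 and immediate early transcription factors of BRL-3A rat liver cells were described across the 5 arrays of the series. The members were taken by name: Fos, Fosb, Fosl1, Fosl2, Jun, Junb, Jund, Atf3, Egr1 and Myc. Of these 10 genes, 9 had a named probe, out of 15167 named genes in all, and Fosb had none and was not analysed here. Fosl2 had 2 probes and each other member had 1.

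BRL-3A is an established line from the liver of a Buffalo rat. Its cells received a lentivirus for overexpression of Tmub1 (transmembrane and ubiquitin-like domain-containing protein 1), a lentivirus for knockdown of Tmub1, the negative control virus of the overexpression virus, the negative control virus of the knockdown virus, or no virus (normal control). The transduced cells were harvested after 48 h, and total RNA of each group was hybridised to 1 one-colour Agilent array. The labels state neither the promoter, the vector nor the target sequence of any virus. With 1 array per group there is no test and no replicate spread, and the intervals given with differences are 95% intervals of scanner error alone.

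AP-1 is a dimer of basic leucine zipper proteins, formed by a Jun protein with a Fos protein, with another Jun protein or with an ATF protein, and it binds the TPA response element (TRE) or the cyclic AMP response element (CRE). Immediate early genes are transcribed within minutes of growth factors, serum or stress, without new protein synthesis, through factors such as the serum response factor and its ternary complex partners. In liver these genes are known for their quick induction after partial hepatectomy.

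Levels are given as the log2 of the scanner's processed signal minus the 75th percentile of its array, so 0 is the level of the 75th percentile. They compare 1 gene between arrays and not 1 gene with another. A gene was called higher or lower where it differed by at least 2.5-fold, the fold of the series' design text, and its brighter value was well above background. All 10 probes of the members were well above background on all 5 arrays.

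The array of the knockdown virus had Tmub1 at -1.42, against 0.45 on the array of its negative control, 3.65-fold lower. The array of the overexpression virus had Tmub1 at 0.44, against 0.37 on the array of its negative control, 1.05-fold, so this probe did not bear out that label, and the virus is called the virus labelled overexpression here. The sources used here do not say whether the probe matches the viral transcript. No spot was saturated. The median processed signal ran from 116.4 to 356.2 between arrays and was highest on the knockdown array. The 4 transduced arrays were scanned in one run and the normal array in another, so scan and group cannot be told apart in any difference from normal cells. Of 11 hepatocyte markers, 6 to 8 were above background per array, with Cps1 and Tat below it on all 5, while 8 or 9 of 9 fibroblast and stellate markers were above it. In these bulk samples fewer cells of a type and less RNA per cell cannot be told apart.

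The promoters of Egr1, Jund and Junb are printed because these members had the largest differences of their kind with the knockdown virus: Egr1 the largest higher value, Jund and Junb the lower ones. The RefSeq (GRCr8) promoter table used here was matched for 6 of the 10 members, which were Fosb, Fosl1, Fosl2, Junb, Jund and Egr1. The window searched ran from 250 bases before to 50 bases after the gene's start, and the 250 bases before the start are shown 5′ to 3′ on the strand of the gene, with motif matches in capitals. Egr1 lies at chr18:26736828-26737077 on the plus strand, Jund at chr16:18769772-18770021 on the minus strand and Junb at chr19:40080876-40081125 on the plus strand.
Egr1: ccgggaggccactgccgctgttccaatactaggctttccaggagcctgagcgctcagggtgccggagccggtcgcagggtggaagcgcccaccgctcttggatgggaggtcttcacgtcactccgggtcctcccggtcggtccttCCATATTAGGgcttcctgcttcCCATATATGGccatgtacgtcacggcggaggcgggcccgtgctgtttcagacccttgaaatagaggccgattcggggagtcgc
Jund: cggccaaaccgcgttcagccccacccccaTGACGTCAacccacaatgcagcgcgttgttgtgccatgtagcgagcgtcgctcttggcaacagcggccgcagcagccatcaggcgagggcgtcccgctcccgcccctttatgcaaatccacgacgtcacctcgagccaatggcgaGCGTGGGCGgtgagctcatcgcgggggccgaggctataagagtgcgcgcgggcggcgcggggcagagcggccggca
Junb: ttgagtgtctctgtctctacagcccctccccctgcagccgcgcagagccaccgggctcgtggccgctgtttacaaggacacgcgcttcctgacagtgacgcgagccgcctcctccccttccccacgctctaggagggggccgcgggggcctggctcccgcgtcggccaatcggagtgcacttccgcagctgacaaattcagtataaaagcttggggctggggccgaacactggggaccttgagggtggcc
The capitals in Egr1 are 2 serum response elements, CCATATTAGG from position -105 and CCATATATGG from position -83 relative to the start. A serum response element was present in 1.64% of the 27457 promoters searched on both strands. The capitals in Jund are a CRE, TGACGTCA, from position -221, present in 1.91% of promoters, and an Egr motif, GCGTGGGCG, from position -76, present in 0.59%. Junb, Fosb, Fosl1 and Fosl2 held none of the motifs searched, which says only that these letters are not in those windows. The other motifs were the TRE, TGANTCA (7.33% of promoters), TGACATCA (4.26%) and the E-box CACGTG (6.65%), and no motif match overlapped another. A match is a description of letters and not a binding site.

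**Figure D1:**
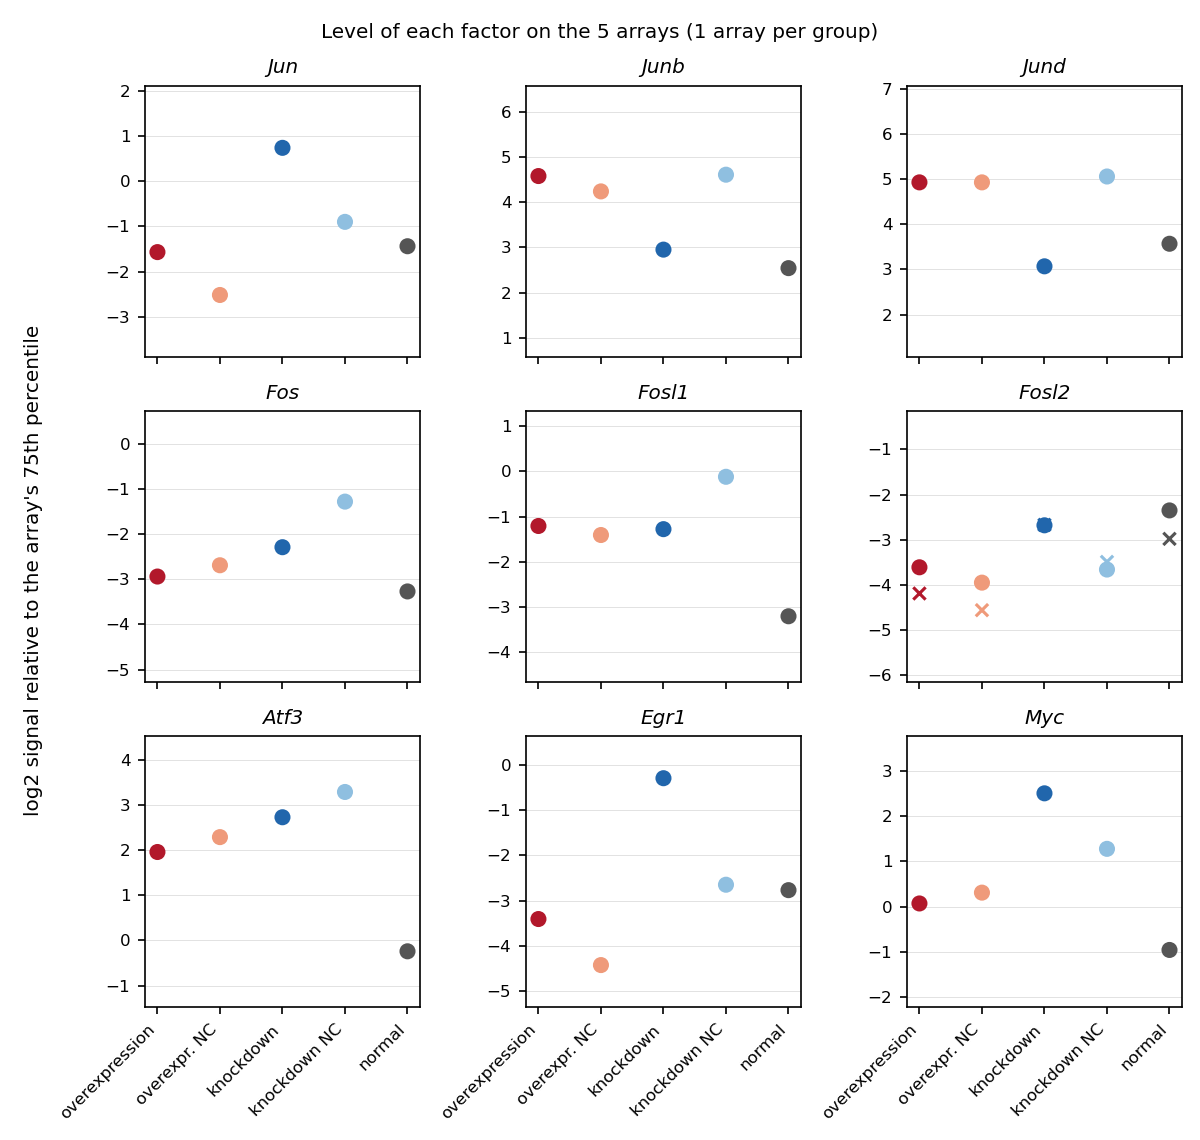
Level of each of the 9 measured members on each array, as log2 of the processed signal relative to the array's 75th percentile. Each point is 1 array, the crosses in the Fosl2 panel are its other probe, and every panel spans the same number of log2 units. Jun, Egr1 and Myc were highest on the knockdown array, while Junb and Jund were lower there than on the other 3 transduced arrays.

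With the knockdown virus, Jun, Egr1 and Myc sat at the top of their ranges and Junb and Jund well below their control. Against the negative control of the knockdown virus, Jun and Egr1 were called higher and Junb and Jund lower. These are 4 of 9 members, beside 18.7% of all 12656 genes called in that comparison (8.53% higher and 10.1% lower). The other 5 members were not called, and the interval of scanner error left out 0 for all 9, with 4 above 0 and 5 below. The share of all genes whose interval left out 0 was not counted. Differences of all genes above background on both arrays had a standard deviation of 1.02. The members' median difference was -0.56, beside -0.17 for all genes.

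Jun (NM_021835) encodes c-Jun, the AP-1 subunit that JNK phosphorylates. Its level was -1.57 with the virus labelled overexpression, 0.74 with the knockdown virus, -2.52 with the overexpression negative control, -0.90 with the knockdown negative control and -1.44 in normal cells. The knockdown array was therefore the highest of the 5 and the overexpression negative control the lowest, and only the normal and overexpression arrays lay next to each other within scanner error. Against its own control the knockdown array was higher by 1.64 (1.24 to 2.04), 3.12-fold.

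Junb (NM_021836) encodes JunB, a Jun protein that can oppose c-Jun at some promoters. Its level was 4.58 with the virus labelled overexpression, 2.95 with the knockdown virus, 4.24 with the overexpression negative control, 4.61 with the knockdown negative control and 2.54 in normal cells. The 3 other transduced arrays were high and the knockdown and normal arrays low. The knockdown array fell below its own control by 1.66 (-2.06 to -1.26), 3.15-fold, but the call was lost with quantile normalisation (-1.11) and in the authors' deposited table (-1.09).

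Jund (NM_138875) encodes JunD, the Jun protein known for steady expression in resting cells. Its level was 4.93 with the virus labelled overexpression, 3.07 with the knockdown virus, 4.93 with the overexpression negative control, 5.06 with the knockdown negative control and 3.57 in normal cells. The 3 other transduced arrays did not differ beyond scanner error, normal cells were below them and the knockdown array was lowest. The difference of knockdown from its own control was -1.99 (-2.39 to -1.59), 3.98-fold lower.

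Fos (NM_022197) encodes c-Fos, the classic partner of c-Jun. Its level was -2.94 with the virus labelled overexpression, -2.29 with the knockdown virus, -2.69 with the overexpression negative control, -1.28 with the knockdown negative control and -3.27 in normal cells. Only the knockdown negative control stood above its neighbour in this order by more than scanner error. Knockdown minus its own control was -1.01 (-1.41 to -0.61), 2.01-fold lower and below the fold used for a call.

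Fosl1 (NM_012953) encodes Fra-1, a Fos protein without the transactivation domain of c-Fos. Its level was -1.21 with the virus labelled overexpression, -1.28 with the knockdown virus, -1.41 with the overexpression negative control, -0.12 with the knockdown negative control and -3.21 in normal cells. The first 3 of these lay within scanner error of their neighbours, the knockdown negative control lay above them and normal cells below. Knockdown minus its own control was -1.16, 2.24-fold lower and not called.

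Fosl2 (NM_012954) encodes Fra-2. Its brighter probe was at -3.61 with the virus labelled overexpression, -2.68 with the knockdown virus, -3.95 with the overexpression negative control, -3.66 with the knockdown negative control and -2.35 in normal cells. The other probe was at -4.19 with the virus labelled overexpression, -2.67 with the knockdown virus, -4.56 with the overexpression negative control, -3.49 with the knockdown negative control and -2.98 in normal cells. Both probes were lowest with the overexpression negative control, and the other probe put the knockdown array above normal cells. Knockdown minus its own control was 0.98 on the brighter probe and 0.81 on the other, and neither was called. Fosl2 was the only measured member with its highest value, on the brighter probe, in normal cells, with the knockdown array within scanner error of it.

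Atf3 (NM_012912) encodes ATF3, a stress-induced partner of Jun proteins that is itself often a repressor. Its level was 1.96 with the virus labelled overexpression, 2.73 with the knockdown virus, 2.29 with the overexpression negative control, 3.29 with the knockdown negative control and -0.24 in normal cells. The 4 transduced arrays were all above normal cells. Knockdown minus its own control was -0.56, 1.48-fold lower and not called, and it ran from -0.72 to -0.03 over 6 other scalings and probe rules.

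Egr1 (NM_012551) encodes a zinc finger factor that binds the Egr motif and is a classic target of the serum response factor. Its level was -3.41 with the virus labelled overexpression, -0.29 with the knockdown virus, -4.43 with the overexpression negative control, -2.65 with the knockdown negative control and -2.77 in normal cells. The knockdown array stood apart above the rest, and the knockdown negative control and normal cells were within scanner error of each other. Knockdown minus its own control was 2.36 (1.95 to 2.77), 5.13-fold higher, the largest difference among the members in that comparison.

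Myc (NM_012603) encodes c-Myc, which pairs with Max at E-boxes and drives ribosome and nucleotide synthesis genes. Its level was 0.07 with the virus labelled overexpression, 2.51 with the knockdown virus, 0.31 with the overexpression negative control, 1.28 with the knockdown negative control and -0.96 in normal cells. Its probe was printed at 10 spots, and the spots used on an array (7 to 10) had a coefficient of variation of 2.42% to 7.94%. Knockdown minus its own control was 1.24 (0.84 to 1.63), 2.35-fold higher and just under the fold for a call. It passed that fold with quantile normalisation (1.71), with the 75th percentile over probes above background on all arrays (1.55) and in the authors' deposited table (1.74).

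**Figure D2:**
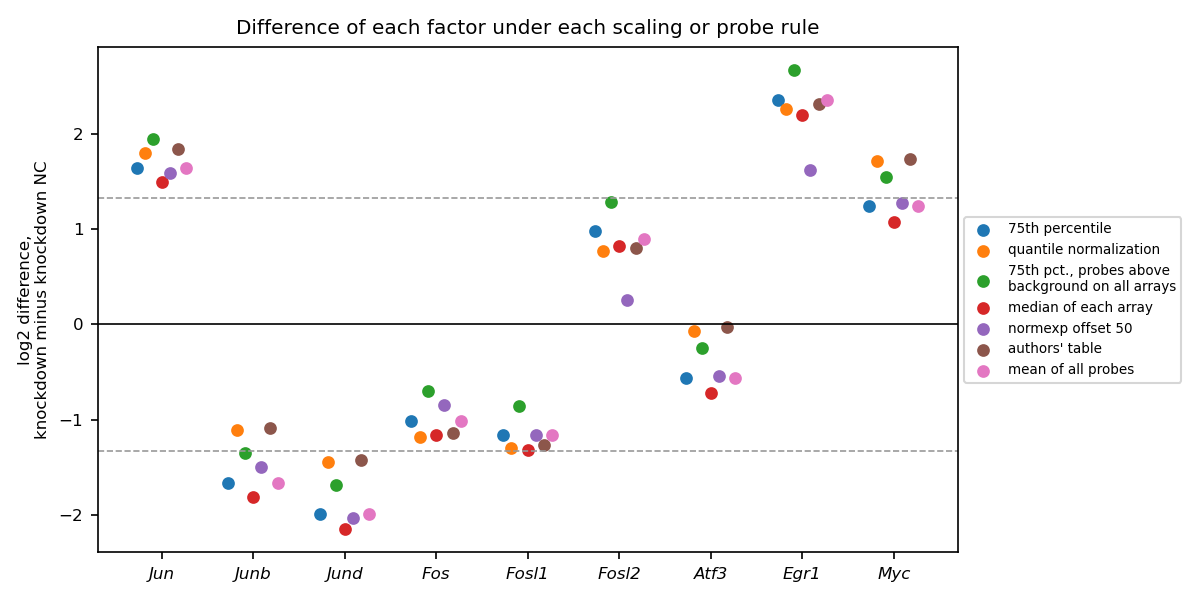
Log2 difference of the knockdown array from the array of its negative control for the 9 measured members, under the 75th percentile and 6 other scalings or probe rules. The dashed lines mark 2.5-fold. Jun, Egr1 and Jund stayed past the lines under all 6, while Junb and Myc lay on either side of them.

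The knockdown array was brighter than its negative control, with a median processed signal of 356.2 against 159.7. Across 6 other scalings and probe rules Jun ran from 1.49 to 1.95, Egr1 from 1.62 to 2.67 and Jund from -2.15 to -1.42, and all 3 kept their call under each. The part of signal strength in these differences was not tested further.

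The same knockdown array was set against 2 more arrays, so these differences share it and are not independent. Against the overexpression negative control, Jun was higher by 3.27 (9.62-fold), Egr1 by 4.13 (17.56-fold) and Myc by 2.20 (4.61-fold), and Jund was lower at -1.86 (3.64-fold). These are 4 of 9 members, beside 30.1% of all genes called (14.0% higher and 16.1% lower). The interval of Egr1 was 3.57 to 4.69, and its processed signal was 25.8 on that control array and 1157 on the knockdown array. Fosl2 was at 1.28 on its brighter probe, not called, and at 1.89 (3.71-fold) on the other. Against normal cells, Jun was higher by 2.18, Egr1 by 2.48, Myc by 3.47 (11.11-fold), Atf3 by 2.97 (7.83-fold) and Fosl1 by 1.93 (3.81-fold), which are 5 of 9 members beside 30.7% called (11.4% higher and 19.3% lower).

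Jun and Egr1 were the 2 of 9 members called in the same direction against all 3 arrays. How many of all genes were called in this way was not counted, so 2 of 9 stands without a background share. Myc and Jund kept their sign against all 3 without keeping the call. The sign of Junb turned: it was -1.66 against the knockdown negative control, -1.29 against the overexpression negative control and 0.42 against normal cells. Fos was -1.01, 0.40 and 0.97 against the knockdown negative control, the overexpression negative control and normal cells.

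**Figure D3:**
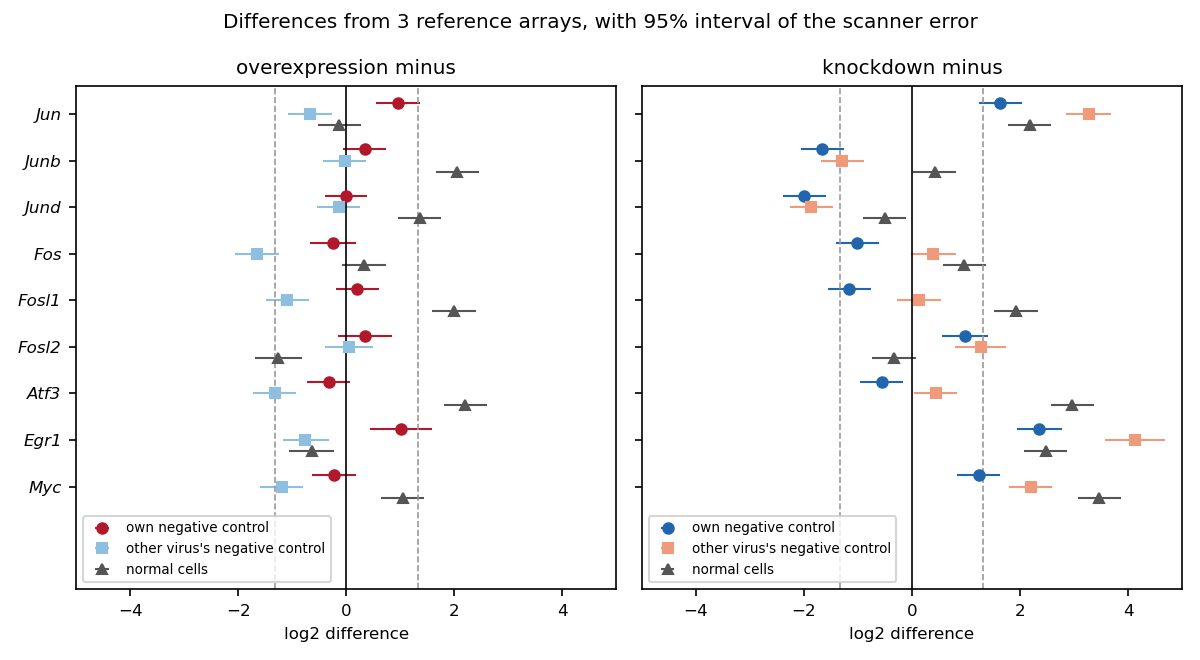
Log2 difference of the overexpression array (left) and of the knockdown array (right) from each of 3 arrays for the 9 measured members. Bars are 95% intervals of scanner error and dashed lines mark 2.5-fold. Jun and Egr1 lie right of the line for all 3 arrays in the knockdown panel, and no member does so in the overexpression panel. The same count over all genes was not taken.

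With the virus labelled overexpression, no member was called against its own negative control (0 of 9), beside 3.14% of all 11794 genes (2.02% higher and 1.12% lower). Egr1 differed by 1.02 (0.44 to 1.59), 2.03-fold, and Jun by 0.95 (0.54 to 1.36), 1.93-fold, and these were the only intervals of scanner error that left out 0. Under normexp background correction, which started from the median pixel signal, Egr1 was at 0.21. Fosl2 differed by 0.35, Junb by 0.34, Fosl1 by 0.20, Jund by -0.01, Myc by -0.23, Fos by -0.25 and Atf3 by -0.33. For Jun and Egr1 the control itself was the lowest of the 5 arrays.

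Against the negative control of the other virus, Jun (-0.67) and Egr1 (-0.76) had the opposite sign, and Fos (-1.66) and Atf3 (-1.33) were called lower, 2 of 9 members beside 4.23% of all genes (1.92% higher and 2.32% lower). Against normal cells, Fosl1 (2.00), Junb (2.05), Jund (1.36) and Atf3 (2.20) were called higher, 4 of 9 beside 17.7% (7.4% higher and 10.3% lower). No member kept 1 sign against all 3 arrays, and how many of all genes did so was not counted. These comparisons share the overexpression array.

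The 2 negative control viruses differed from each other at these genes. Fos, Jun and Egr1 were lower with the overexpression negative control than with the knockdown negative control, with differences of -1.41 (2.66-fold), -1.62 (3.08-fold) and -1.77 (3.42-fold). These are 3 of 9 members, beside 8.97% of all 11820 genes (3.38% higher and 5.58% lower). All 9 members had a negative difference, beside a median of -0.01 for all genes. Fosl1 was at -1.29, Atf3 at -1.0, Myc at -0.97, Junb at -0.37, Fosl2 at -0.30 and Jund at -0.13, with the last 3 within scanner error. That Fosl2 value is from its brighter probe, and the other was at -1.08 (2.11-fold). Fos kept its call in 2 of 6 other scalings and probe rules, and Jun and Egr1 each in 5. Under normexp background correction Egr1 was at -0.65 and Fosl2 at 0.03, and with the median of each array Jund was at 0.06.

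Set against normal cells, both negative control viruses had higher Fosl1, Junb, Jund and Atf3. With the overexpression negative control, Fosl1 was higher by 1.80, Junb by 1.71, Jund by 1.36 and Atf3 by 2.53, and Fosl2 (-1.61) and Egr1 (-1.66) were lower, 6 of 9 members beside 19.0% of all 13450 genes (7.6% higher and 11.4% lower). With the knockdown negative control, Fos was higher by 1.98, Fosl1 by 3.09 (8.52-fold), Junb by 2.07, Jund by 1.49, Atf3 by 3.53 (11.56-fold) and Myc by 2.24, 6 of 9 beside 16.8% of all 13498 genes (7.25% higher and 9.52% lower). Fos, Fosl1, Junb, Atf3 and Myc were above normal cells on all 4 transduced arrays, and Fosl2 was below on all 4, on its brighter probe. Of these, Fos on the overexpression array (0.32, -0.09 to 0.74) was within scanner error of normal cells. So was Fosl2 on the knockdown array (-0.33, -0.73 to 0.07). With the overexpression negative control, the calls of Egr1 and Fosl2 held in 2 of 6 other scalings and probe rules, that of Jund in 3 and that of Junb in 4. With the knockdown negative control, Jund kept its call in 4 of 6.

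Some cell type markers also differed between the transduced arrays and the single normal array. All 5 leukocyte and macrophage markers on the array were above background on each transduced array, with a summed linear level of 6.92 to 9.64, against 3 of 5 and 1.83 on the normal array. Ptprc and Lyz2 were not above background in normal cells, and Cd14 was at 0.95 to 2.24 on the transduced arrays, against -0.47 in normal cells. Csf1r ran the other way, at -1.57 to -0.80 on the transduced arrays against -0.14 in normal cells, and Adgre1 was at -2.56 to -1.78 on the transduced arrays and inside that range, at -2.41, in normal cells. Pecam1, an endothelial marker, and Pdgfra, a fibroblast marker, were above background on the transduced arrays and not in normal cells. The other endothelial markers, Cdh5, Kdr and Tek, were above background on all 5 arrays. In normal cells they were at -1.62, 1.64 and -3.44, inside their ranges on the transduced arrays (-2.15 to -1.39, -0.28 to 1.74 and -4.23 to -2.54). The median of the fibroblast and stellate list was 2.54 to 2.88 on the transduced arrays, against 2.9 in normal cells. In that list Col1a2 was lower on each transduced array (4.24 to 5.76, against 5.81 in normal cells). Pdgfrb (-0.41 to 1.66, against -0.81) and Thy1 (-5.37 to -4.66, against -5.68) were higher on each. Tf, a hepatocyte marker, was at -0.56 to 0.52, against -3.76 in normal cells. The median of the hepatocyte list went the other way, at -6.17 to -4.81 against -4.1. Epcam, a cholangiocyte marker, was above background only in normal cells. Their part in the result was not tested, and the 2 controls share the normal array.

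The members were set against each other in pairs by profile over the 5 arrays, measured as the root mean square (RMS) difference of their mean-centred log2 values. Junb and Jund were closest (0.31), then Jun and Egr1 (0.33), and Fosl1 and Atf3 (0.37). Jund and Egr1 were farthest apart (2.08). Each value rests on 5 arrays that differ in virus, brightness and scan.

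By the same measure over 10654 other genes above background on all arrays, Jun was closest to Clba1 (0.093) and Ubap2l (0.107). Egr1 was closest to Trit1 (0.193) and Mast2 (0.217), and Myc to Slc3a2 (0.199), a subunit of an amino acid transporter, and Cth (0.235), an enzyme of cysteine synthesis. Junb was closest to Jam2 (0.092) and Uap1l1 (0.097), and Jund to Pgm2l1 (0.076) and Abcc4 (0.09). Fos was closest to Atp6v0b (0.151) and Il6r (0.159), Fosl1 to Jag1 (0.189) and Ppp1r15a (0.199), Fosl2 to Tubgcp6 (0.07) and Pcyt1a (0.111), and Atf3 to Lmo2 (0.189) and Il34 (0.205).

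Genes that work with the members were described in 6 lists with the knockdown virus against its own control. The comparison had 18.7% of all genes called (8.53% higher and 10.1% lower) and a median of -0.17. Of 28 readable other basic leucine zipper factors, 4 were higher and 1 lower, with a median of -0.08. Creb1, a CRE-binding activator, was higher by 1.92, Mafk, a small Maf partner of Bach and NRF proteins, by 1.79, and Jdp2, a repressor that dimerises with c-Jun, by at least 3.34-fold because its control was below background. Crem, a CRE modulator, was at -1.69, while its other probes were at -0.60, -1.28, 0.02 and -0.30. Over 7 scalings and probe rules the calls in this list ran from 1 to 7. Creb1, Mafk, Jdp2 and Crem each lost their call in 1 setting, with their smallest differences at 0.91, 0.91, 0.03 and -0.77.

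Of 27 other immediate early genes, 5 were higher and 4 lower, with a median of 0.04. Ptgs2, the inducible prostaglandin synthase, was at -5.41 with the virus labelled overexpression, 0.42 with the knockdown virus, -5.36 with the overexpression negative control, -3.39 with the knockdown negative control and -4.41 in normal cells, and the knockdown difference was 3.82 (14.08-fold). Ccn2, a matricellular protein, was higher by 2.94 and Dusp1, a MAP kinase phosphatase, by 2.92. Zfp36, which destabilises AU-rich messages, was lower at -1.96. Ier5 was at -1.97 and Rhob at -1.76, with other probes at -0.11 and -0.98. Rhob kept its call in 5 of 7 scalings and probe rules and Ier5 in 6. Against the overexpression negative control Rhob was at 0.52 and Ccn2 at 1.15, both short of the fold for a call. In that comparison Dusp1 (3.41), Ier5 (-1.61) and Zfp36 (-1.35) passed it.

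Of 18 genes for the serum response factor, ternary complex factors and MAP kinases, 3 were higher and 1 lower, with a median of -0.03. Mapk9, which encodes JNK2, was higher by 1.69, Map2k4, a JNK kinase, by 1.59 and Elk3, a ternary complex factor, by 1.47. Mapk14, which encodes p38 alpha, was lower at -1.39. Elk3 kept its call in 3 of 7 scalings and probe rules and Mapk14 in 4.

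Of 24 genes known as AP-1 targets, 6 were higher and 0 lower, beside 8.53% and 10.1% of all genes. Their median was 0.50, which ran from 0.02 to 0.81 over 7 scalings and probe rules. Il1rl1, the receptor of interleukin 33, was higher by 4.54, but by 2.23 on its other probe. Hbegf, an EGF receptor ligand, was higher by 3.86. Against the overexpression negative control the same list had 7 of 24 higher and 1 lower, with a median of 0.55, beside 14.0% of all genes called higher and 16.1% lower. Against normal cells it had 13 of 24 higher and 0 lower, with a median of 1.76, beside 11.4% and 19.3% of all genes. Of the other lists, 3 also had more higher than lower calls against normal cells, with 11 higher and 2 lower of 28 immediate early genes, 9 and 1 of 28 basic leucine zipper factors, and 8 and 0 of 28 Myc targets. The serum response factor and MAP kinase list had 2 higher and 3 lower of 18, and the Max network 0 and 2 of 11. The negative controls, set against the same normal array, also had more AP-1 targets higher than lower. With the overexpression negative control 6 of 23 were higher and 0 lower, with a median of 0.69, beside 7.6% and 11.4% of all genes. With the knockdown negative control 7 of 23 were higher and 1 lower, with a median of 0.46, beside 7.25% and 9.52%. The part shared with these controls was not tested.

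Among 11 genes of the Max network, 3 were higher and 4 lower, with a median of -0.39. Mnt, a Max-binding repressor, was lower at -2.25, Max itself at -1.35 and Mxi1 at -1.75, the last with other probes at 0.15 and -0.67. Mycn, the paralogue of Myc, was higher by 1.78, Mxd3 by 1.73 and Mxd1 by 1.46, with 0.20 on the other Mxd1 probe. Of 28 genes known as Myc targets, 5 were higher and 3 lower, with a median of 0.10. Polr1b, a subunit of RNA polymerase I, was higher by 2.8, Ncl, the nucleolar protein nucleolin, by 2.59 and Wdr12, a ribosome assembly factor, by 2.49. Fbl at -1.39, Pes1 at -1.34 and Hspe1 at -1.34 were lower, with -0.02 on the other Hspe1 probe. Of 7 scalings and probe rules, Mxd1 and Fbl kept their call in 3, Pes1 in 4 and Hspe1 in 2. Mxd3, Mxi1 and Max kept theirs in 6, with their smallest differences at 0.26, -0.76 and -1.04, and Mxd3 was at -1.16 against normal cells. The medians of the 5 lists other than the AP-1 targets crossed 0 between these settings. Against the overexpression negative control Mycn was at 0.93, Mnt at -1.16 and Max at -0.84, each short of the fold for a call. In that comparison Mxd3 (1.99), Mxd1 (1.54) and Mxi1 (-2.38) passed it.

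**Figure D4:**
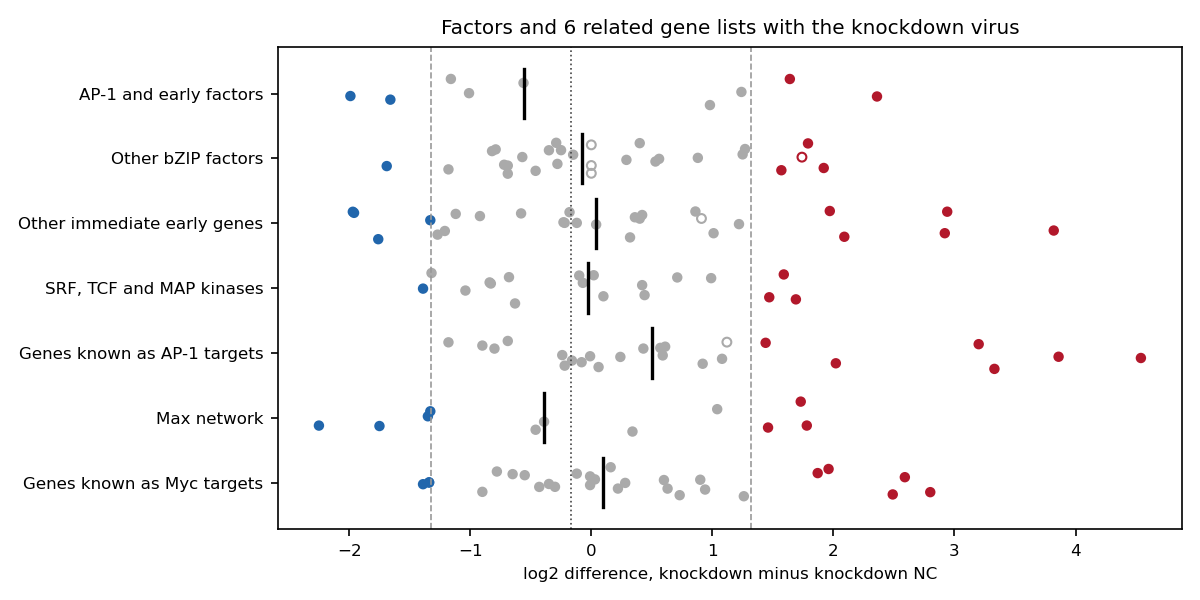
Log2 difference of the knockdown array from the array of its negative control for the 9 measured members and the readable genes of 6 related lists. Each circle is a gene, filled where measured and open where 1 array gave only a bound; red and blue mark genes called higher and lower, black bars list medians, dashed lines 2.5-fold and the dotted line the median of all genes (-0.17). The AP-1 target row has 6 genes past the right line and 0 past the left, beside 8.53% higher and 10.1% lower of all genes.

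With the virus labelled overexpression against its own control, 4 of the 128 readable genes of the lists were called (3.12%), beside 3.14% of all genes. Mafg, a small Maf factor, was higher by 1.56, Elk3 by 1.40, and Plaur, the urokinase receptor, by 1.39, and Mycn was lower at -1.66. The other readable genes of the lists, including all 25 immediate early genes and all 28 Myc targets, were not called. Against the knockdown negative control, Mafg was at -0.32, Elk3 at -0.35 and Plaur at -0.42, and all 3 were lowest with the overexpression negative control. Elk3 and Plaur kept their call in 3 of 7 scalings and probe rules and Mafg in 6.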

How the data were processed

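Per the file headers and labels, each array was a one-colour (Cy3) Agilent array, read from total RNA with Agilent Feature Extraction 11.0.1.1. Per the submitters' processing notes the version was 9.1. The deposited scanner files give the processed signal as an intensity, already background-corrected by the scanner software. The authors' deposited table gives log2 values with equal quartiles across arrays. That unit was read by setting the table against log2 scanner values, and how it was normalised is not stated in the labels or headers.

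From the intensity, spots flagged as outliers and control spots were left out, log2 values of a probe's spots were averaged and each array's 75th percentile was subtracted. Probes were named through their accessions with the RefSeq table, which named 18004 of 30366 probes. A gene's value is its probe with the highest mean. Where the dimmer value was not well above background, the lowest signal that was (or the value itself, if higher) stood in for it, giving a bound. Intervals use the scanner's signal error. With 1 array per group no test was run. Alternatives were quantile normalisation, other percentiles, normexp (limma 3.58.1, offset 50, R 4.3.3; run on the median pixel signal, so it changes the input signal as well as the background correction), the authors' table, other probe rules, filters and folds. Calculations used Python 3.11.15 and were tested on simulated data.

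The members and lists were chosen with earlier results of these data known. The genes named are all members, up to 3 called genes per list and direction with each virus against its own control, and the 2 nearest profiles per member; 1 gene that this rule names is not reported here.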

Additional observations from a re-analysis of the deposited data

Results flagged for a closer look

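Jun differed from normal cells in opposite directions with the 2 negative control viruses. It was at -1.08 with the overexpression negative control and at 0.54 with the knockdown negative control, each relative to normal cells on the log2 scale. Both intervals of scanner error left out 0, and neither value was called at 2.5-fold. Over 6 other scalings and probe rules the first value ran from -1.34 to -0.47 and the second from 0.35 to 0.96. The first was called lower at -1.34, with the 75th percentile over probes above background on all arrays. The 2 values share the normal array. The difference between them is the -1.62 already given for the 2 negative controls, and it was not tested.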

How the results depend on the processing

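No paired analysis was possible because each group has 1 array. For overexpression minus its negative control, 370 genes were called: normexp gave 77, requiring both arrays above background 243, no filter 749, 2-fold 782, 4-fold 87 and normal cells as reference 2392; members called were 0, with 1 at 2-fold, 2 with the knockdown negative control as reference and 4 with normal cells. For knockdown minus its negative control, 2363 genes were called: normexp gave 1425, 2-fold 4028, 4-fold 684, the other negative control 3749 and normal cells 4225; members called were 4, with 7 at 2-fold and 1 at 4-fold. For overexpression negative control minus knockdown negative control, 1060 genes were called: normexp gave 385, 2-fold 2043 and 4-fold 289; members called were 3, with 0 under normexp and 0 at 4-fold. For overexpression negative control minus normal, 2557 genes were called: quantile gave 1646, normexp 801, 1604 in the authors' table, no filter 4023, 2-fold 4415 and 4-fold 822; members called were 6, with 3 under each of quantile, normexp and the authors' table and 1 at 4-fold. For knockdown negative control minus normal, 2264 genes were called: normexp gave 760, 2-fold 3752 and 4-fold 821. Junb with the knockdown virus turned to 0.42 with normal cells as reference.

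The share higher among called genes moved with the scaling. For overexpression minus its negative control it was 64.3%, with 53.6% under quantile, 51.7% with the array median, 49.4% under normexp and 51.4% in the authors' table. For knockdown it was 45.7%, with 71.2% using probes above background on all arrays, 33.5% with the array median and 34% under normexp; between the controls it was 37.7%, with 57.0% with the array median and 53.8% under normexp. For the overexpression negative control against normal cells it was 40%, with 69.4% under quantile, 22.6% using probes above background, 86.6% with the array median, 81.6% under normexp and 70.8% in the authors' table. For the knockdown negative control against normal cells it was 43.2%, with 70.2% under quantile, 30.5% using probes above background, 76.0% with the array median, 71.8% under normexp and 67.5% in the authors' table. The median of all genes for knockdown minus its control shifted by 0.26, -0.16 and -0.25 under probes above background, the array median and normexp. The cause was not tested for any of these. Arrays without replicates limit every value.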

Other observations

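Mycn, the paralogue of Myc, was the only gene of the 6 lists called in opposite directions with the 2 Tmub1 viruses against their own controls. Its level was 0.49 with the virus labelled overexpression, 3.09 with the knockdown virus, 2.15 with the overexpression negative control, 1.31 with the knockdown negative control and 2.63 in normal cells. The overexpression array was lowest and the knockdown array highest, and the normal array was closer to the knockdown array than to the overexpression array. Elk3 was called higher with both viruses against their own controls, at -3.83 with the virus labelled overexpression, -2.01 with the knockdown virus, -5.23 with the overexpression negative control, -3.48 with the knockdown negative control and -3.68 in normal cells. The overexpression negative control was the lowest array for Elk3, as it was for Jun and Egr1.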
